A study of Mus musculus with 16 samples.

Results

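The genes described here are 45 mouse genes of DNA replication: those that license origins, form and start the replicative helicase, carry the polymerases and their clamp, join the lagging strand and protect the fork. They were taken by name, with earlier results of these data known. A gene was read from the array row annotated to it alone, and where it had several such rows the one with the highest mean over all 16 arrays was used. This gave 44 of the 45 genes a row, among 22180 genes on the array with one; Rfc4, a clamp loader subunit, shares its row with Eif4a2 and has no value. Of the 44 genes, 38 passed the filter on low values (a level above the array's median on at least 4 of 16 arrays), as did 13555 genes in all.

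Before S phase, the origin recognition complex, Cdc6 and Cdt1 load the Mcm2 to Mcm7 ring onto DNA, a step called licensing, and geminin blocks Cdt1 afterwards. In S phase, kinases, Cdc45 and the GINS complex turn the ring into an active helicase, and polymerases alpha, delta and epsilon copy the strands behind it with the help of the sliding clamp PCNA. Most hepatocytes of an adult liver are out of the cell cycle and carry little of this machinery, while MYC and the E2F factors are well known activators of many of its genes.

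Liver was taken from 8 C57BL/6J mice at 18 months of age. All 8 mice carried a MYC transgene that is expressed in liver under sequences of the woodchuck hepatitis virus, so the controls are MYC livers too. In 4 of them the labels give the genotype MYC+/+, REG3A-/- (called MYC mice), and in the other 4 MYC+/+, REG3A+/+ (called MYC/REG3A mice, which also carry the REG3A transgene). Each liver was separated into tumour and non-tumour tissue and frozen, for 4 groups of 4 arrays. No group without the MYC transgene is compared here, and the promoter that drives REG3A is not given in the sources used here.

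Values are log2 RMA levels, on which 1 unit is a doubling. They are given for mice 1 to 4 in order, non-tumour liver first. Tests used limma, with the mouse as a block for tumour changes and without it for genotype comparisons within a tissue. Benjamini-Hochberg adjustment ran over all 13555 tested genes, with a threshold of 0.05. An error after ± is the standard error of the fit. It rests on 1 spread per gene shared by all 16 arrays. It is therefore the same for the tumour change in both genotypes and does not show the spread within a group. The medians of the arrays lay between 4.90 and 4.97. Precision is limited by having 4 arrays a group. In a principal component analysis of all tested genes, the tumours of MYC/REG3A mice 2 and 4 stood apart from the other 6 tumours. Their first component was -4.21 and 2.55, against 32.7 to 42.3 in the other tumours and -31 to -26.4 in non-tumour liver. Hepatocyte markers were high everywhere, with a mean level over 9 genes of 12.13 to 12.61 on all 16 arrays. In bulk tissue, fewer cells of a type and less RNA per cell cannot be told apart.

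Promoter letters are given first, because the members are textbook targets of E2F and of MYC. RefSeq promoters of mouse build GRCm38.p6, running from 250 bases before to 50 bases after a gene's start, were at hand for 36 of the 45 genes, in 42 windows. One of the E2F words TTTCCCGC, TTTGGCGC, TTTCGCGC and TTTGCCGC, on either strand, stood in 14 of the 42 windows (33.3%) and in 744 of 32851 windows of all genes (2.26%). Words on opposite strands can overlap, as TTTCGCGC and TTTGGCGC do in the promoters of Mcm5 and Mcm6. The MYC and MAX E-box CACGTG stood in 6 of the 42 windows (14.3%, all genes 7.15%). CCAAT stood in 25 (59.5%, all genes 37.4%), and the CHR words TTTGAA and TTCGAA of the DREAM complex in 7 (16.7%, all genes 19.2%). The member windows were richer in G and C, with a median of 59.2% against 52.7% for all windows. A match is a description of the letters and not a measured binding site.

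The 160 bases before the start of 6 of the genes are shown, 5′ to 3′ on the gene's strand, with E2F words and the E-box in capitals. They were picked for contrast: overlapping E2F words in 2 genes that rose, a single E2F word in a gene that rose and in one that did not, an E-box, and a helicase gene with neither.
Mcm6, chr1:128359706-128359865, minus strand: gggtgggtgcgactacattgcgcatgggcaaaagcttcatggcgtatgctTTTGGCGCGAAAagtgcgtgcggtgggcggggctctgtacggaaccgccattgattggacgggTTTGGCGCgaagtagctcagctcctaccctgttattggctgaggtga
Mcm5, chr8:75109349-75109508, plus strand: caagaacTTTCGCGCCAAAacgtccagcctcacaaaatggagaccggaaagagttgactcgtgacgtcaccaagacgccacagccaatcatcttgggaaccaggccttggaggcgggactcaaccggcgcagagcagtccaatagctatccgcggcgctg
Cdc6, chr11:98907991-98908150, plus strand: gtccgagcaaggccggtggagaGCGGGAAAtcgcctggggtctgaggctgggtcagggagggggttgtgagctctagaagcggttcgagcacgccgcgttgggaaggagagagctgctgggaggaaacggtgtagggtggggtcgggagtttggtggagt
Gins3, chr8:95633399-95633558, plus strand: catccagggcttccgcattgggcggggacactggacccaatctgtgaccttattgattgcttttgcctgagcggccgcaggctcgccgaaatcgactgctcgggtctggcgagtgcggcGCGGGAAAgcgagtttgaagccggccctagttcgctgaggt
Rpa1, chr11:75348384-75348543, minus strand: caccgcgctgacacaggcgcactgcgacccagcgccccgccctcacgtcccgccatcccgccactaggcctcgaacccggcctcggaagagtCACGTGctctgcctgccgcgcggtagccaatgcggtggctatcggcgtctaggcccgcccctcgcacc
Mcm2, chr6:88898781-88898940, minus strand: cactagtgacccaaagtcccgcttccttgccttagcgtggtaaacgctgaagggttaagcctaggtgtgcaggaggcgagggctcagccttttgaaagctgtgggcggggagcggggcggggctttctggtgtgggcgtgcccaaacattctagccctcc

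In Mcm6 the E2F words began 110, 106 and 47 bases before the start, in Mcm5 153 and 149 bases before it, in Cdc6 138 and in Gins3 41 bases before it. The E-box of Rpa1 began 68 bases before the start. Mcm2 holds no E2F word or E-box in its window, but the CHR word TTTGAA 70 bases before the start.

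In MYC mice, 27 of the 38 tested genes rose in tumours and 1, Fen1, fell; over all genes tested, 17.4% rose and 15.8% fell. The median difference of the 38 genes was 0.70 on the log2 scale, and that of all genes -0.03. In 11 of the 38 the difference was at least 1, which 4.04% of all genes reached with a passing test. In 28 of the 38 genes every tumour was higher than every non-tumour piece (16% of all genes), and in Fen1 every tumour was lower (14.1% of all genes). Without the filter on low values, 28 of 44 genes rose and 1 fell, against 10.4% of all genes that rose. Left out in turn, MYC mice 1 to 4 each cost some calls: 24, 26, 25 and 22 of the 28 were kept. Mcm3, Cdc6, Rfc3, Pold1, Fen1 and Dna2 were lost without mouse 4, Pold1, Rfc3, Fen1 and Dna2 without mouse 1, Pola2 and Fen1 without mouse 2, and Cdc6, Rfc3 and Fen1 without mouse 3.

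In MYC/REG3A mice, 16 of the 38 tested genes rose in tumours and none fell by the limma test, while 29 differed at an unadjusted p under 0.05 (30.1% of all genes). Over all genes, 7.58% rose and 4.88% fell. The median difference was 0.51 (all genes -0.02), 6 genes differed by at least 1 (1.93% of all genes), and in 21 the tumours lay wholly above non-tumour liver (11.2% of all genes; none lay wholly below, 8.29% of all genes). Without the filter, 14 of 44 rose, against 4.04% of all genes. The count depended on single mice: it was 5 without mouse 1 (Mcm2, Mcm4, Mcm7, Cdc45 and Gins2), 2 without mouse 3 (Mcm2 and Mcm4), 17 without mouse 2 and 11 without mouse 4. The count over all genes, 1690 in full, also fell without mouse 1 or mouse 4, so the fall without either of these 2 mice was not particular to the members. The members' median difference kept its sign, as given under processing below. Without mice 2 and 4 together, the tumours that stood apart, 13 of the 16 were kept and Mcm10 and Rpa3 were gained.

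All 16 genes that rose in MYC/REG3A tumours were among the 27 that rose in MYC tumours, a share of 16 of 16 and 16 of 27. Over all genes, 6.92% rose in both genotypes. These were 938 genes, of 1028 that rose in MYC/REG3A tumours and 2357 that rose in MYC tumours. Most genes that rose in MYC/REG3A tumours thus rose in MYC tumours too, members or not. The tumour was above its own non-tumour liver in all 8 mice for 27 of the 38 genes (14% of all genes). One gene (Chaf1a) passed the filter through tumour arrays alone, and Cdc6 and Cdc45 passed it with 1 non-tumour array each, while 32 genes were above the median on every array.

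**Figure D1:**
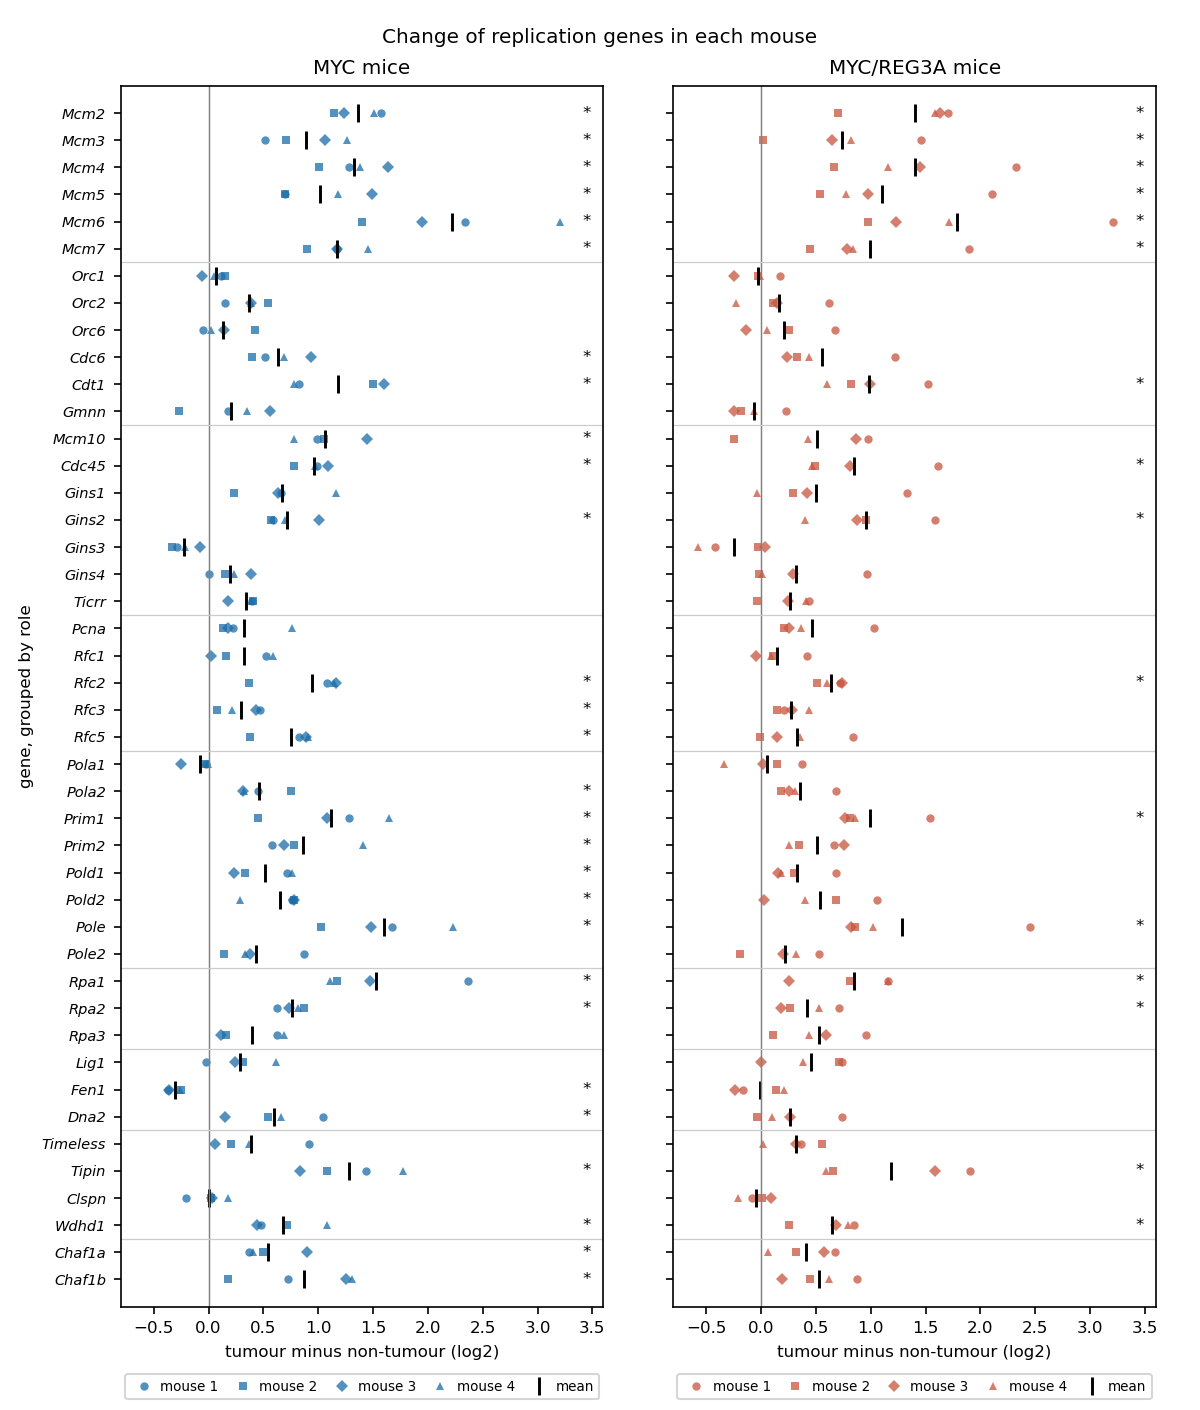
Tumour minus non-tumour level (log2) of each of the 44 genes in each mouse, MYC mice on the left and MYC/REG3A mice on the right, with genes grouped by role; each symbol is 1 mouse, the black bar is the mean of 4 mice, and a star marks an adjusted p under 0.05. Most points lie right of 0 in both panels, the 6 ring genes at the top all carry stars in both, and mouse 1 is often the farthest to the right in MYC/REG3A mice.

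The helicase ring rose as a whole: all 6 of Mcm2 to Mcm7 passed in both genotypes, with a median difference of 1.25 in each. Mcm6 moved most. Its levels in MYC mice 1 to 4 were 6.86, 6.03, 6.19 and 6.06 in non-tumour liver and 9.20, 7.43, 8.14 and 9.27 in tumours. In MYC/REG3A mice 1 to 4 they were 5.39, 6.02, 6.12 and 5.97, against 8.6, 7.0, 7.35 and 7.68. Every tumour was above every non-tumour piece, and the tumours spread more widely than the non-tumour liver. The difference was 2.22 ± 0.36 (SE, n = 4 mice; adjusted p = 0.00214), or 4.67-fold, in MYC mice and 1.78 ± 0.36 (adjusted p = 0.0164), or 3.44-fold, in MYC/REG3A mice.

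Mcm2 was at 6.40, 6.08, 6.26 and 6.25 in non-tumour liver of MYC mice and at 7.98, 7.22, 7.49 and 7.76 in their tumours. The MYC/REG3A levels were 5.97, 5.69, 5.76 and 5.64 and rose to 7.67, 6.39, 7.38 and 7.22. Its tumour levels lay above all non-tumour levels of the same genotype, with the tumour of MYC/REG3A mouse 2 the lowest. The differences were 1.37 ± 0.17 (adjusted p = 0.00087) and 1.4 ± 0.17 (adjusted p = 0.00349).

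Mcm4, which forms a stable subcomplex with Mcm6 and Mcm7, was at 7.10, 6.95, 6.29 and 6.94 in non-tumour liver and 8.38, 7.96, 7.92 and 8.32 in tumours of MYC mice. MYC/REG3A mice had levels of 6.33, 6.73, 7.07 and 6.57 against 8.66, 7.39, 8.52 and 7.73. The groups did not overlap in either genotype, and with Mcm2 it was one of the 2 genes that passed in MYC/REG3A mice whichever single mouse was left out. Its differences were 1.33 ± 0.22 and 1.4 ± 0.22.

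Mcm7, whose row lay at 6.72 to 7.12 in non-tumour liver of MYC mice and at 7.62 to 8.47 in their tumours, differed by 1.17 ± 0.20, and by 0.99 ± 0.20 in MYC/REG3A mice (6.65 to 6.72 against 7.17 to 8.55). Mcm5 was at 6.78, 6.11, 5.66 and 6.19 in non-tumour liver and 7.48, 6.80, 7.16 and 7.38 in tumours of MYC mice, a range that leaves a narrow gap between the groups. Mcm5 in MYC/REG3A mice was at 5.62, 6.13, 5.81 and 5.79 against 7.73, 6.67, 6.78 and 6.57. It rose by 1.02 ± 0.24 and 1.10 ± 0.24. Mcm3 differed least of the ring, by 0.89 ± 0.21 and 0.73 ± 0.21 (adjusted p = 0.046). Its levels were 6.11, 5.56, 5.59 and 5.91 against 6.62, 6.26, 6.65 and 7.17 in MYC mice, and 5.52, 5.92, 5.65 and 5.71 against 6.98, 5.93, 6.29 and 6.53 in MYC/REG3A mice. In MYC/REG3A mouse 2 the tumour and the non-tumour level of Mcm3 were nearly equal, and the gene no longer passed in that genotype without MYC/REG3A mouse 1, 3 or 4 or MYC mouse 2, 3 or 4.

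The ring moved to different extents in different animals. Its median difference over the 6 genes was 1.23, 0.95, 1.37 and 1.42 in MYC mice 1 to 4 and 2.0, 0.60, 1.10 and 1.0 in MYC/REG3A mice 1 to 4. MYC/REG3A mouse 1 was the highest of the 8 and MYC/REG3A mouse 2 the lowest.

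**Figure D2:**
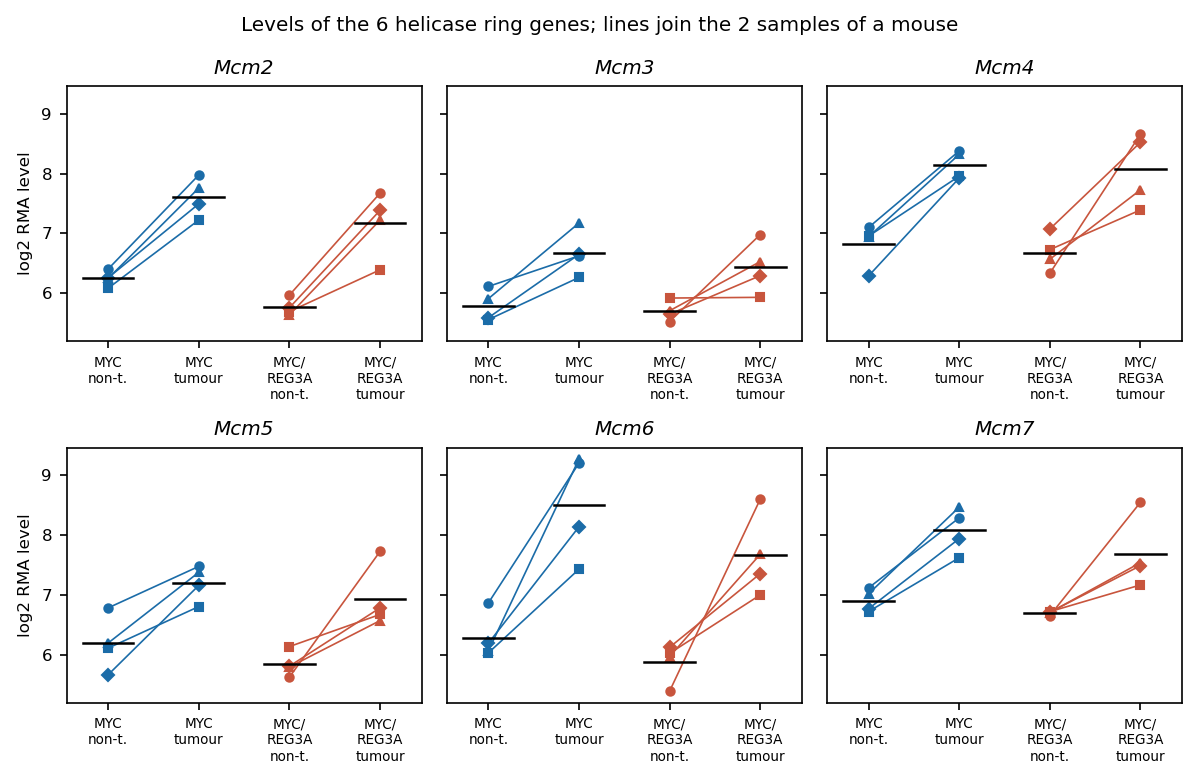
Level (log2 RMA) of the 6 ring genes on every array, 1 panel a gene, with MYC and MYC/REG3A mice side by side; a line joins the non-tumour liver and the tumour of 1 mouse. Every line rises, most steeply for Mcm6, and Mcm3 in MYC/REG3A mouse 2 is nearly flat; levels of different genes come from different rows and are not comparable with each other.

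Of the genes that recognise origins and load the ring, Cdt1 was the one to rise in both genotypes. Cdt1, the factor that brings the ring to the origin, was at 6.37, 5.70, 5.76 and 6.33 in non-tumour liver of MYC mice and at 7.19, 7.20, 7.36 and 7.11 in tumours. Levels in MYC/REG3A mice were 5.83, 6.04, 6.02 and 6.26 against 7.35, 6.86, 7.01 and 6.86. No tumour reached down to the non-tumour range, with differences of 1.18 ± 0.18 (adjusted p = 0.00184) and 0.98 ± 0.18 (adjusted p = 0.0123).

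Cdc6, the ATPase that loads the ring with Cdt1, rose in MYC tumours: 4.99, 4.84, 4.54 and 4.41 against 5.50, 5.23, 5.47 and 5.10, a difference of 0.63 ± 0.16 (adjusted p = 0.0156). In MYC/REG3A mice it was at 4.19, 4.57, 4.63 and 4.69 against 5.41, 4.89, 4.87 and 5.14, which did not overlap but did not pass (0.55 ± 0.16, adjusted p = 0.0532).

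The origin recognition genes gave smaller differences, and neither tested one passed. Orc2 was at 6.36, 6.18, 6.00 and 6.33 against 6.51, 6.72, 6.39 and 6.71 in MYC mice, and at 6.06, 6.22, 6.35 and 6.27 against 6.69, 6.33, 6.5 and 6.04 in MYC/REG3A mice. It differed by 0.37 ± 0.14 (adjusted p = 0.0612) and 0.16 ± 0.14, and the groups overlapped in MYC/REG3A mice. Orc6 was at 6.17, 5.69, 5.96 and 6.13 against 6.12, 6.12, 6.10 and 6.16 in MYC mice, with tumours all within the non-tumour range, and at 5.66, 6.03, 6.10 and 5.92 against 6.33, 6.28, 5.97 and 5.97 in MYC/REG3A mice.

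Orc1 and Gmnn, which encodes the Cdt1 inhibitor geminin, were below the array median on nearly all arrays and were not tested. Orc1 was at 4.26, 4.21, 4.23 and 4.20 against 4.37, 4.37, 4.17 and 4.25 in MYC mice and at 4.07, 4.26, 4.21 and 4.21 against 4.24, 4.23, 3.97 and 4.21 in MYC/REG3A mice. Gmnn was at 4.49, 4.68, 4.53 and 4.46 against 4.67, 4.41, 5.09 and 4.81, and at 4.63, 4.83, 4.76 and 4.55 against 4.85, 4.65, 4.51 and 4.49. For both genes tumour and non-tumour values overlapped in each genotype.

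Among the genes that activate the helicase, Cdc45 and Gins2 rose in both genotypes and Mcm10 in MYC tumours. Cdc45, the subunit that joins the ring at firing, was at 5.04, 4.88, 4.62 and 4.90 against 6.03, 5.66, 5.71 and 5.86 in MYC mice, a difference of 0.96 ± 0.17. The MYC/REG3A levels were 4.69, 4.80, 4.81 and 4.66 against 6.30, 5.29, 5.62 and 5.13, a difference of 0.84 ± 0.17. All 8 tumours were above all 8 non-tumour pieces for Cdc45.

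Gins2, a GINS subunit, lay at 5.45 to 6.14 in non-tumour liver and 6.39 to 6.72 in tumours of MYC mice, and at 5.53 to 5.74 against 6.11 to 7.17 in MYC/REG3A mice, with differences of 0.72 ± 0.17 and 0.95 ± 0.17. The remaining tested GINS genes did not pass. Gins3 was at 5.92, 5.41, 5.54 and 5.59 against 5.64, 5.07, 5.46 and 5.38 in MYC mice and 5.78, 5.39, 5.64 and 5.92 against 5.36, 5.36, 5.67 and 5.34 in MYC/REG3A mice, a difference of -0.23 ± 0.12 and -0.25 ± 0.12 that did not pass (adjusted p = 0.172 and 0.199).

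Gins4 was at 8.69, 8.81, 8.63 and 8.54 against 8.70, 8.96, 9.01 and 8.77 in MYC mice, and at 8.37, 8.97, 8.92 and 8.58 against 9.34, 8.95, 9.21 and 8.6 in MYC/REG3A mice. Its groups overlapped, and neither difference passed (0.19 ± 0.16 and 0.31 ± 0.16). Gins1 was not tested, since only 3 tumour arrays put it above their median. Its levels were 4.29, 4.39, 4.11 and 4.37 against 4.95, 4.62, 4.74 and 5.53 in MYC mice and 4.26, 4.33, 4.36 and 4.43 against 5.59, 4.62, 4.77 and 4.38 in MYC/REG3A mice. Without the filter its difference in MYC mice was 0.67 ± 0.21 with an adjusted p = 0.0514.

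Mcm10, which helps the assembled helicase to start, was at 5.99, 5.97, 5.36 and 5.97 against 6.98, 7.02, 6.80 and 6.75 in MYC mice, a difference of 1.07 ± 0.19 (adjusted p = 0.00328). MYC/REG3A mice had levels of 5.79, 6.81, 6.31 and 6.49 against 6.76, 6.56, 7.17 and 6.92, with overlap and a lower tumour than non-tumour value in mouse 2, and did not pass (0.51 ± 0.19, adjusted p = 0.107). Ticrr, the origin firing factor treslin, was below the median on all arrays, at 3.94, 3.77, 4.07 and 4.05 against 4.34, 4.18, 4.25 and 4.44 in MYC mice and at 3.94, 4.07, 3.87 and 3.81 against 4.38, 4.04, 4.12 and 4.22 in MYC/REG3A mice. Without the filter, Ticrr passed in MYC mice, with a difference of 0.34 ± 0.09 (adjusted p = 0.0308).

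The clamp and its loader gave modest differences. Pcna, the sliding clamp itself, did not pass in either genotype. It was at 9.03, 8.92, 8.88 and 8.76 against 9.26, 9.06, 9.06 and 9.52 in MYC mice and at 8.48, 8.81, 8.78 and 8.62 against 9.51, 9.02, 9.04 and 8.98 in MYC/REG3A mice. The tumours lay just above the non-tumour pieces in both genotypes with no overlap, and the differences were 0.32 ± 0.16 (adjusted p = 0.139) and 0.47 ± 0.16 (adjusted p = 0.078).

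Of the clamp loader genes, Rfc2 rose in both genotypes. It was at 6.68, 6.51, 6.30 and 6.55 against 7.76, 6.88, 7.47 and 7.70 in MYC mice (0.94 ± 0.14, adjusted p = 0.00148) and at 6.88, 6.24, 6.44 and 6.71 against 7.59, 6.75, 7.18 and 7.31 in MYC/REG3A mice (0.64 ± 0.14, adjusted p = 0.0196). The tumour of mouse 2 was the lowest in each genotype, and in MYC/REG3A mice it overlapped with non-tumour liver.

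Rfc5 and Rfc3 rose in MYC tumours. Rfc5 was at 7.12, 7.06, 6.75 and 6.90 against 7.94, 7.44, 7.64 and 7.80 (0.75 ± 0.15), and in MYC/REG3A mice at 7.24, 7.28, 7.10 and 7.01 against 8.07, 7.27, 7.24 and 7.36, where mouse 1 stood above the rest (0.33 ± 0.15, adjusted p = 0.166). Rfc3 was at 6.20, 6.17, 6.22 and 6.42 against 6.67, 6.25, 6.66 and 6.64 in MYC mice, and at 6.48, 6.25, 6.28 and 6.32 against 6.69, 6.39, 6.56 and 6.75 in MYC/REG3A mice. Its groups overlapped in both genotypes, and its MYC value passed narrowly (0.30 ± 0.10, adjusted p = 0.0493), and did not pass without MYC mouse 1, 3 or 4 or without any 1 of the MYC/REG3A mice. Rfc1, the large subunit, did not pass: 6.5, 6.41, 6.76 and 6.34 against 7.02, 6.57, 6.79 and 6.93, and 6.33, 6.46, 6.49 and 6.49 against 6.74, 6.57, 6.44 and 6.58.

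The polymerase genes rose in MYC tumours in 6 of 7 tested cases, and in MYC/REG3A tumours in 2, Pole and Prim1. Pole, the catalytic subunit of the leading-strand polymerase, was at 5.71, 5.33, 5.12 and 5.03 against 7.38, 6.35, 6.6 and 7.26 in MYC mice, a difference of 1.60 ± 0.27 or 3.03-fold. Levels in MYC/REG3A mice were 4.94, 5.50, 5.58 and 5.30 against 7.40, 6.35, 6.41 and 6.31, a difference of 1.29 ± 0.27 or 2.44-fold. All tumours were above all non-tumour pieces, with MYC/REG3A tumour 1 far above the other 3. A second row of Pole, not used, was below the median on every array and differed by 0.14 and -0.13. With the mean of both rows Pole no longer passed in MYC/REG3A mice, nor did it without MYC/REG3A mouse 1 or 3.

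Prim1, the primase subunit that makes the RNA primer, was at 5.55, 5.56, 5.12 and 5.40 against 6.83, 6.01, 6.21 and 7.04 in MYC mice, and at 5.25, 5.31, 5.25 and 5.21 against 6.79, 6.12, 6.01 and 6.06 in MYC/REG3A mice. No tumour overlapped with non-tumour liver, and the differences were 1.12 ± 0.19 and 0.99 ± 0.19 (adjusted p = 0.00274 and 0.0144). Its partner Prim2 was at 6.39, 6.16, 5.78 and 6.17 against 6.97, 6.94, 6.47 and 7.58 in MYC mice (0.86 ± 0.15). Prim2 in MYC/REG3A mice was at 5.77, 6.02, 5.82 and 6.12 against 6.44, 6.36, 6.58 and 6.37 (0.51 ± 0.15, adjusted p = 0.0523), without overlap and without passing.

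Of the genes of polymerase alpha, which extends the primer, Pola2 passed in MYC tumours and Pola1 in neither genotype. Pola2, the accessory subunit, rose in MYC tumours: 7.57, 7.30, 7.58 and 7.60 against 8.02, 8.06, 7.89 and 7.92 (0.46 ± 0.12). Pola2 in MYC/REG3A mice was at 7.27, 7.64, 7.55 and 7.67 against 7.95, 7.82, 7.80 and 7.98 (0.36 ± 0.12, adjusted p = 0.0718). Pola1, the catalytic subunit, was at 6.37, 6.29, 6.21 and 6.12 against 6.35, 6.27, 5.96 and 6.12 in MYC mice and at 5.87, 6.17, 6.19 and 6.33 against 6.25, 6.31, 6.21 and 5.99 in MYC/REG3A mice. Its values overlapped in both genotypes, with differences of -0.07 ± 0.12 and 0.05 ± 0.12 that did not pass.

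Polymerase delta, which copies the lagging strand, rose in MYC tumours in both of the subunits described here. Pold1 was at 6.07, 5.76, 6.13 and 5.77 against 6.79, 6.09, 6.37 and 6.53 (0.51 ± 0.13), and Pold2 at 7.89, 7.92, 7.99 and 8.18 against 8.66, 8.69, 8.77 and 8.47 (0.65 ± 0.16). In MYC/REG3A mice Pold1 was at 5.80, 5.81, 5.85 and 5.82 against 6.47, 6.10, 6.00 and 6.00, and Pold2 at 7.95, 8.09, 8.23 and 8.06 against 9.01, 8.77, 8.25 and 8.45. All 4 tumours were above the non-tumour range for both genes there, and neither passed (adjusted p = 0.12 for Pold1 and 0.0545 for Pold2). Pole2, an untested subunit of polymerase epsilon, was at 4.73, 4.25, 4.29 and 4.47 against 5.6, 4.39, 4.67 and 4.80 in MYC mice, with tumour 1 above all other arrays, and at 4.26, 4.57, 4.34 and 4.29 against 4.79, 4.38, 4.54 and 4.61 in MYC/REG3A mice.

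The subunits of RPA, which coats single-stranded DNA, differed in size. Rpa1 was at 7.11, 6.83, 6.65 and 6.80 against 9.47, 8.0, 8.12 and 7.91 in MYC mice, with mouse 1 far above the others, a difference of 1.53 ± 0.22 (2.88-fold, adjusted p = 0.0013). In MYC/REG3A mice it was at 6.57, 7.06, 7.08 and 6.99 against 7.72, 7.87, 7.33 and 8.14, a difference of 0.84 ± 0.22 (1.79-fold, adjusted p = 0.0341). The MYC/REG3A call was lost without any 1 of the MYC/REG3A mice, with no replicate block, with no filter and with the mean of all rows. A second, unused row of Rpa1 was below the median on every array and differed by 0.21 and 0.11.

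Rpa2 was at 5.84, 5.69, 5.50 and 5.56 against 6.46, 6.56, 6.24 and 6.37 in MYC mice and at 5.84, 5.80, 5.92 and 5.52 against 6.55, 6.06, 6.10 and 6.05 in MYC/REG3A mice. The groups were apart in both genotypes, and it rose by 0.76 ± 0.11 and 0.42 ± 0.11. Rpa3 was at 7.71, 7.80, 7.99 and 7.73 against 8.33, 7.96, 8.11 and 8.42 in MYC mice and at 7.66, 8.15, 7.90 and 7.60 against 8.62, 8.26, 8.50 and 8.04 in MYC/REG3A mice. Both sets overlapped, and neither difference passed (0.40 ± 0.15, adjusted p = 0.0716, and 0.52 ± 0.15, adjusted p = 0.0511). A second row of Rpa3, not used, was above the median on all 16 arrays and differed less, by 0.23 in MYC and 0.13 in MYC/REG3A mice.

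Of the genes that finish Okazaki fragments, Dna2 rose and Fen1 fell in MYC tumours. Dna2, a nuclease and helicase for long flaps, was at 6.89, 7.01, 7.25 and 7.34 against 7.94, 7.55, 7.40 and 8.0 in MYC mice and rose by 0.60 ± 0.16 (adjusted p = 0.019). The MYC/REG3A levels were 7.16, 7.07, 7.09 and 7.32 against 7.90, 7.03, 7.36 and 7.42, with overlap (0.27 ± 0.16). Lig1, the ligase that seals the nicks, was at 6.74, 6.23, 6.42 and 6.28 against 6.72, 6.54, 6.66 and 6.90, and at 5.98, 6.18, 6.52 and 6.07 against 6.71, 6.90, 6.52 and 6.46. Its groups overlapped, and neither difference passed (0.29 ± 0.15 and 0.46 ± 0.15).

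Fen1, the flap nuclease, was the one gene that fell. It was at 4.82, 4.88, 4.97 and 4.83 in non-tumour liver and 4.45, 4.63, 4.62 and 4.57 in tumours of MYC mice, and at 5.04, 4.90, 4.93 and 4.87 against 4.88, 5.04, 4.69 and 5.08 in MYC/REG3A mice. The MYC groups did not overlap and the difference was -0.31 ± 0.10 (adjusted p = 0.0445), while in MYC/REG3A mice it was -0.01 ± 0.10. Only 4 arrays put this row above their median. The call was lost whichever MYC mouse was left out, without MYC/REG3A mouse 2, with a stricter filter, after cyclic loess and with the mean of all rows. The other Fen1 row, above the median on 1 array, went up by 0.51 in both genotypes, so the 2 rows of this gene disagreed in direction.

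Of the fork protection genes, Tipin and Wdhd1 rose in both genotypes. Tipin, which forms with Timeless the complex that holds polymerase and helicase together, was at 5.18, 5.08, 4.88 and 4.93 against 6.61, 6.16, 5.71 and 6.70 in MYC mice, a difference of 1.28 ± 0.23. MYC/REG3A mice had levels of 4.74, 4.74, 5.01 and 4.93 against 6.64, 5.40, 6.59 and 5.52, a difference of 1.18 ± 0.23. Its MYC/REG3A tumours fell into a higher pair, mice 1 and 3, and a lower pair, mice 2 and 4, all above non-tumour liver.

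Timeless, the partner, was at 5.13, 5.44, 5.63 and 5.44 against 6.04, 5.65, 5.69 and 5.80 in MYC mice and at 5.45, 5.33, 5.39 and 5.75 against 5.82, 5.89, 5.71 and 5.77 in MYC/REG3A mice, and did not pass in either (0.39 ± 0.15, adjusted p = 0.0682, and 0.32 ± 0.15). Wdhd1, which ties polymerase alpha to the helicase, lay at 5.35 to 5.89 against 5.91 to 6.59 in MYC mice and 5.27 to 5.54 against 5.78 to 6.34 in MYC/REG3A mice, and rose by 0.68 ± 0.14 and 0.64 ± 0.14. Clspn, the checkpoint mediator claspin, was below the median on every array and was not tested; it was at 4.58, 4.37, 4.31 and 4.29 against 4.38, 4.39, 4.35 and 4.46 in MYC mice and at 4.63, 4.43, 4.30 and 4.58 against 4.55, 4.44, 4.39 and 4.37 in MYC/REG3A mice, with overlap.

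The tested subunits of the chromatin assembly factor, which puts histones on new DNA, rose in MYC tumours. Chaf1b was at 6.37, 6.30, 6.06 and 6.15 against 7.10, 6.48, 7.31 and 7.46 (0.87 ± 0.19), and in MYC/REG3A mice at 6.38, 6.44, 6.22 and 6.34 against 7.25, 6.88, 6.42 and 6.96 (0.53 ± 0.19, adjusted p = 0.0857). Chaf1a was at 4.83, 4.64, 4.30 and 4.67 against 5.2, 5.14, 5.19 and 5.07 (0.54 ± 0.13), and at 4.77, 4.44, 4.77 and 4.69 against 5.45, 4.76, 5.34 and 4.75 (0.41 ± 0.13, adjusted p = 0.0678). The MYC groups were apart for both genes and the MYC/REG3A groups overlapped for both.

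The promoter letters can be set beside the changes, as a description. Of the 11 tested genes with an E2F word, 8 rose in MYC tumours, with a median difference of 0.64. Of the 20 tested genes with a window and no E2F word, 13 rose, with a median of 0.63. In MYC/REG3A tumours 5 of the 11 rose (median 0.55), and 6 of the 20 (median 0.44). Among the 6 genes with an E-box, Rpa1, Pola2 and Chaf1a rose in MYC tumours, Rfc1 and Lig1 did not pass and Fen1 fell. Mcm6 and Gins3, whose promoters are printed above, both carry E2F words, and one rose and the other did not pass.

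The REG3A genotype was compared in each tissue and in the size of the tumour change. No member passed in any of the 3 comparisons by limma, but the intervals were wide. For the change of the tumour change (MYC/REG3A minus MYC), 1 of 38 had an unadjusted p under 0.05 (5.58% of all genes), and 1 gene of all those tested passed the adjusted test (0.00738%). The 38 differences ran from -0.69 to 0.30 with a median of -0.11, which was -0.29 without MYC/REG3A mouse 1, -0.05 without mouse 2 and 0.06, with the sign turned, without mice 2 and 4. The member at the lower end was Rpa1, at -0.69 (95% interval -1.37 to -0.01, adjusted p = 0.873). For Mcm6 the difference was -0.44 (95% interval -1.57 to 0.69), so a change that is smaller by over 1 log2 unit was within the interval.

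In non-tumour liver, none of the 38 genes and none of all genes tested passed (0%), while 2 members and 5.45% of all genes had an unadjusted p under 0.05. The 2 were Mcm10, higher in MYC/REG3A mice by 0.52 ± 0.20, and Mcm2, lower by -0.48 ± 0.22. The sign was positive in 18 of 38 (6631 of 13555 over all genes). Next by p were Pcna, Lig1 and Mcm5, whose values stand above, and Mcm2 and Mcm7 were lower in all 4 MYC/REG3A mice than in any MYC mouse (2.27% of all genes), while no member was higher in all 4 (1.61% of all genes).

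In tumours, 0 of 38 members and 3 of all genes (0.0221%; 0.00738% higher and 0.0148% lower) passed, and 4 members had an unadjusted p under 0.05 (10.6% of all genes). Fen1 was higher in MYC/REG3A tumours by 0.36 ± 0.09 (adjusted p = 0.263), with all 4 above all MYC tumours (1.63% of all genes). This Fen1 row was above the median on only 4 arrays, and the other Fen1 row rose by 0.51 in tumours of both genotypes. Prim2 was lower by -0.55 ± 0.19, Rpa1 by -0.61 ± 0.28 and Mcm6 by -0.85 ± 0.39, with overlap between the genotypes for all 3, and no member was lower in all 4 MYC/REG3A tumours than in any MYC tumour (1.90% of all genes). The sign was negative in 30 of the 38, with a median of -0.20 (-0.04 without MYC/REG3A mice 2 and 4). Over all genes the sign was positive in 6445 of 13555, with a median of -0.01.

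**Figure D3:**
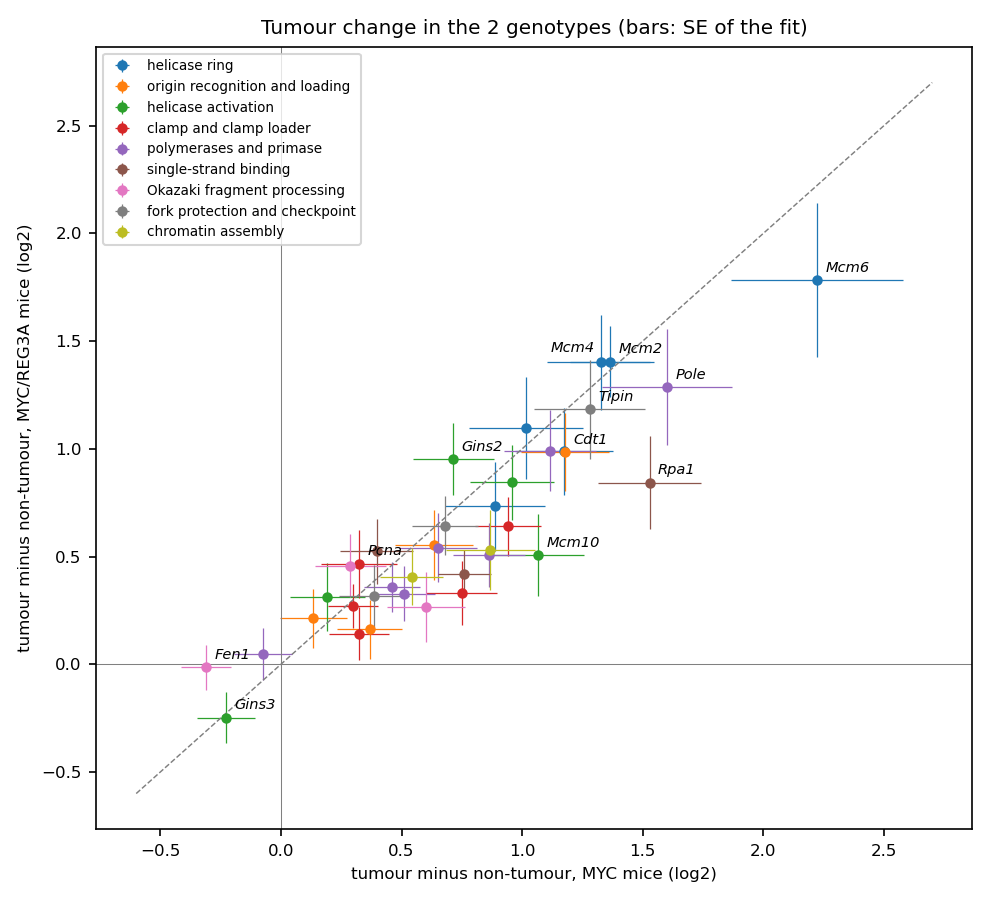
Tumour minus non-tumour difference (log2) in MYC mice on the horizontal and in MYC/REG3A mice on the vertical axis for the 38 tested genes; bars are standard errors of the fit, the colour shows the gene's role, and the dashed line marks equal change. The 6 ring genes lie between 0.73 and 2.22 on both axes, Rpa1 and Mcm10 lie below it, and Fen1 and Gins3 lie at or below 0.

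Mice differed in how far the genes moved together. The median difference over the 38 genes was 0.66, 0.54, 0.81 and 0.77 in MYC mice 1 to 4 and 0.91, 0.32, 0.31 and 0.43 in MYC/REG3A mice 1 to 4. MYC/REG3A mouse 1 was above all MYC mice, and the other 3 were below all of them. In MYC/REG3A tumours, mouse 1 was the highest of 4 for 33 of the 44 genes with a row, tested or not (29.6% of the tested genes). The standard deviation among MYC/REG3A tumours was above that of their non-tumour liver for 31 of 38 genes (68% of all genes), with a median of 0.30, against 0.21 among MYC tumours. Non-tumour liver of MYC mouse 1 was the highest of its group for 30 of the 44 genes, tested or not (26.8% of the tested genes). Mki67, a marker of cycling cells, was highest there too, at 7.50 against 6.20 to 6.90 in the other 3. The same sample had the highest mean level of T and NK cell markers (5.49 against 4.53 to 4.80) and bile duct and progenitor markers (6.26 against 5.48 to 5.64). It was also highest for stellate cell and fibroblast markers (8.71 against 7.76 to 8.25) and B and plasma cell markers (7.07 against 6.06 to 6.72). Macrophage and Kupffer cell markers were narrowly highest there (9.60 against 8.03 to 9.57), and hepatocyte markers were lowest (12.37 against 12.42 to 12.56). Neutrophil, sinusoidal endothelial and erythroid markers were not highest there. The part of these cell types in the members' levels was not tested.

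Genes around the machinery were counted from lists by role, beside all genes, of which 17.4% rose in MYC tumours and 7.58% in MYC/REG3A tumours. Of 8 tested factors of origin firing, 5 rose in MYC tumours and 4 in MYC/REG3A tumours, with medians of 0.85 and 0.69. Ccna2, the S phase cyclin A2, differed by 2.08 ± 0.27 and 2.13 ± 0.27. Dbf4, which activates the Cdc7 kinase, differed by 1.07 ± 0.30 and 1.12 ± 0.30, and Topbp1 and Mtbp also rose in both. Ccne1, cyclin E1, rose by 1.95 ± 0.33 in MYC tumours, and in MYC/REG3A tumours it differed by 0.89 ± 0.33 without passing (adjusted p = 0.103). Mki67 rose by 1.46 ± 0.24 and 1.81 ± 0.24.

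Genes that control licensing through protein degradation gave 4 of 6 higher and 1 lower in MYC tumours, and 2 of 6 higher in MYC/REG3A tumours. Dtl, the receptor that marks Cdt1 for destruction, rose by 1.47 ± 0.25 and 1.19 ± 0.25, and Skp2 by 1.18 ± 0.21 and 1.12 ± 0.21. Ddb1 and Fzr1 rose and Cul4a fell (by 0.45) in MYC tumours. Of 15 other fork and chromatin genes, 7 rose in MYC tumours and 5 in MYC/REG3A tumours, among them the histone chaperone Asf1b (0.94 ± 0.19 and 1.21 ± 0.19) and the maintenance methyltransferase Dnmt1 (0.54 ± 0.13 and 0.56 ± 0.13).

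A further list held the remaining subunits of the origin recognition complex and of polymerases delta and epsilon, together with Mcm8 and Mcm9, which form a separate helicase, and the MCM binding protein Mcmbp. Of these 10 genes, 3 rose in MYC tumours, Mcm8, Pold4 and Pole3, and none passed in MYC/REG3A tumours by limma (2 at an unadjusted p under 0.05), with medians of 0.09 and 0.07. Of 11 genes of polymerases outside the replicative fork and their accessory proteins, Polh and Poli rose in MYC tumours. None passed in MYC/REG3A tumours by limma (1 at an unadjusted p under 0.05), and the medians were 0.17 and 0.03.

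Transcription factors and pocket proteins that regulate S phase genes went both ways. In MYC tumours 3 of 14 rose (E2f3, Rbl1 and Foxm1) and 3 fell (Rb1, Rbl2 and Myc). These shares were close to those of all genes, of which 17.4% rose and 15.8% fell. In MYC/REG3A tumours 4 rose (E2f3, Rbl1, Foxm1 and E2f8) and Rbl2 fell, while 7.58% of all genes rose and 4.88% fell. E2f3 differed by 1.05 ± 0.22 and 0.85 ± 0.22, and Rbl2, the p130 pocket protein that holds these genes silent in resting cells, by -0.75 ± 0.11 and -0.65 ± 0.11. The row of mouse Myc fell by 0.59 in MYC tumours (adjusted p = 0.00673) and differed by -0.14 in MYC/REG3A mice, where mouse 2 had levels of 9.24 in non-tumour liver and 9.37 in the tumour. Whether this row reads the transgene is not stated in the sources used here.

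**Figure D4:**
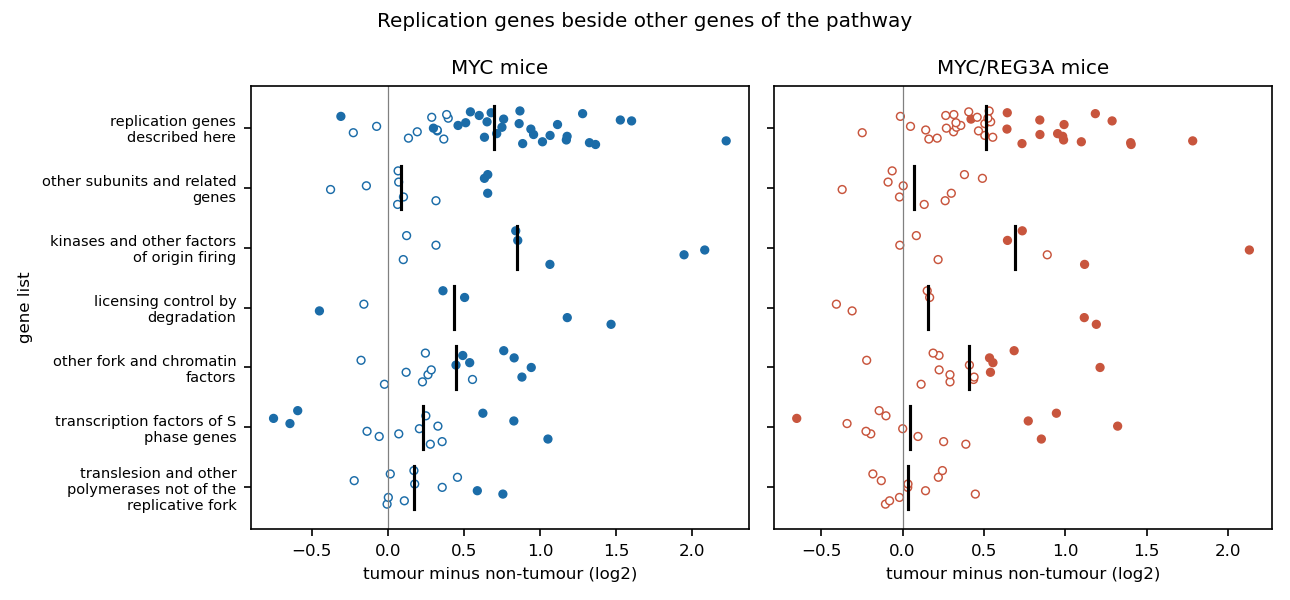
Tumour minus non-tumour difference (log2) of every tested gene in the member list and in each of the other lists, in MYC mice and MYC/REG3A mice; each point is 1 gene, filled where the adjusted p was under 0.05, and the black bar is the list's median. Members and origin firing factors have medians from 0.51 to 0.85. The other subunits and related genes, and the polymerases outside the fork with their accessory proteins, have medians from 0.03 to 0.17.

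Markers of several other cell types fell in tumours, against a background of 15.8% of all genes in MYC mice and 4.88% in MYC/REG3A mice. Of 8 macrophage and Kupffer cell genes, 6 fell in MYC tumours and 7 in MYC/REG3A tumours; their mean level was 8.03 to 9.60 in non-tumour liver against 7.21 to 8.24 in tumours of MYC mice, and 8.41 to 9.14 against 6.82 to 8.16 in MYC/REG3A mice. Of 8 sinusoidal endothelial genes 7 and 5 fell, and of 6 B and plasma cell genes 3 and 3. In tumours of MYC/REG3A mice 1 to 4 the mean endothelial level was 7.64, 8.49, 7.64 and 8.30, against 8.36 to 8.77 in non-tumour liver. B and plasma cell markers were at 5.10, 6.10, 4.95 and 5.65, against 5.92 to 6.94. For T and NK cell, neutrophil and bile duct markers, tumours 2 and 4 were not both above tumours 1 and 3. Of 9 hepatocyte genes 2 and 1 fell, and of 5 tested T and NK cell genes none passed in either genotype by limma (1 and 0 at an unadjusted p under 0.05). Of 4 neutrophil genes 3 and 0 fell, of 5 bile duct and progenitor genes 3 and 0, and of 8 stellate cell and fibroblast genes 4 and 3. No macrophage, endothelial, B cell or hepatocyte marker was below the lower quartile on every array. Of 3 erythroid genes with a row, Tfrc alone rose (1.63 ± 0.30 and 1.71 ± 0.30), which is also an iron uptake gene of dividing cells. The part of cell makeup in the differences of the members was not tested.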

How the data were processed

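Total RNA of 16 samples (4 groups of 4) was hybridised to a 1-colour Affymetrix array. The authors deposited log2 values per row, which per the submitters' processing notes come from RMA in Affymetrix Expression Console 1.4.1. Settings, genome build and log base are not given in the sources used here; base 2 was inferred from array maxima of 13.55 to 13.68. RMA makes array distributions alike, so changes are relative to all genes. Of 41345 rows, 23521 carry 1 gene symbol, 1814 several and 16010 none; only the first kind was used.

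limma 3.58.1 (R 4.3.3) was fitted to all 16 arrays, with the mouse as a fixed block for tumour changes and their difference, and with 4 group means for genotype comparisons. The labels give tumour and non-tumour liver of a mouse the same number and call them pairwise, and the pieces of a mouse deviated together with a correlation of 0.0963 to 0.325, the highest of their genotype in 7 of 8 mice. No 2 arrays held identical values. The fit was tested on simulated data with 13555 genes. Noise was independent, with 1 spread per gene and no mouse effect, and 100 genes were changed by 1 log2 unit and 100 by 2. For a change of 1 log2 unit, 75 of 100 genes were recovered in the MYC comparison and 79 of 100 in the MYC/REG3A comparison. For the difference of the tumour changes 55 of 100 were recovered. Unchanged genes called numbered 10, 13 and 9. The array data differ in these settings, so these shares do not give the power of the comparisons here.

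Genes named with values in every sample were those with the largest and smallest change in each role, all that were untested, fell or passed in 1 or neither genotype, the 5 of lowest p in each genotype comparison and the highest and lowest in level. Mcm4 and Prim1 were added after their values were seen. The members, lists, markers and alternatives were chosen with earlier results of these data known. Alternatives were the block, the filter, rows of a gene, centring, cyclic loess, array weights, a mean-variance trend and samples left out. No protein sequences were used here.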

Additional observations from a re-analysis of the deposited data

Results flagged for a closer look

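Within each group of 4 mice, the highest or lowest sample was compared with the other 3 for each of the 44 genes. In 12 of 176 such groups the gap of 1 sample to the nearest other, as a share of the whole range, was above Dixon's critical value for 95% confidence, and chance alone gives about 1 in 20, or 8.8.

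The tumour of MYC/REG3A mouse 1 was high for 5 genes. It was at 9.51 for Pcna (the other 3 between 8.98 and 9.04), 8.07 for Rfc5 (7.24 to 7.36) and 6.79 for Prim1 (6.01 to 6.12). For Pole it was at 7.40 (6.31 to 6.41), and for Rpa2 at 6.55 (6.05 to 6.10). The tumour of MYC/REG3A mouse 3 was low for Orc1, at 3.97 (4.21 to 4.24), and high for Gins3, at 5.67 (5.34 to 5.36).

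Among MYC tumours, mouse 1 was high for Rpa1, at 9.47 (7.91 to 8.12), and mouse 2 low for Rfc3, at 6.25 (6.64 to 6.67). In non-tumour liver, MYC mouse 3 was low for Mcm10, at 5.36 (5.97 to 5.99), MYC mouse 2 low for Pola2, at 7.30 (7.57 to 7.60), and MYC/REG3A mouse 1 low for Rfc1, at 6.33 (6.46 to 6.49).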

How the results depend on the processing

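Single mice moved the MYC/REG3A results most. Leaving out 1 mouse at a time, the members that passed ranged from 22 to 28 in MYC tumours (28 in full) and from 2 to 17 in MYC/REG3A tumours (16 in full), with 5 without MYC/REG3A mouse 1 and 2 without mouse 3. The count over all genes ranged from 2975 to 4490 in MYC tumours (4505 in full) and from 273 to 1849 in MYC/REG3A tumours (1690 in full), with 281 without mouse 1 and 944 without mouse 4. The members' median difference kept its sign in both, at 0.69 to 0.74 and 0.37 to 0.57. Each of these fits used fewer samples than the full one, and why the counts moved was not tested.

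With no replicate block for the mouse pairing, 30 members passed in MYC and 19 in MYC/REG3A tumours, of which 27 and 14 were shared with the blocked fit. With the mouse as a random block (correlation 0.101), 32 and 22 passed. The block changed no count of members by over 1.5 times.

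For the difference of tumour changes, no member passed under any alternative. Over all genes 1 passed in full, 0 with no replicate block, with no filter, with the stricter filter and without MYC/REG3A mice 2 and 4, 3 with centred arrays and with array weights, and 0 to 2 with 1 mouse left out. The members' median difference, -0.11 in full, was -0.29 to -0.05 with 1 mouse left out, -0.21 with array weights and 0.06 without MYC/REG3A mice 2 and 4. For genotype in non-tumour liver the count was 0 in full and 0 to 22 with 1 mouse left out (22 without MYC mouse 2). In tumours it was 3 in full, 0 without MYC/REG3A mice 2 and 4, and 3 to 114 with 1 mouse left out (21 without MYC mouse 2, 13 without MYC mouse 3 and 114 without MYC/REG3A mouse 1).

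In MYC/REG3A tumours 2 uncalled genes changed sign; the cause was not tested. Fen1 went from -0.01 to 0.0136 after cyclic loess, 0.0419 with array weights, and 0.0365 and 0.0611 without MYC/REG3A mouse 1 and 3 (-0.0883 to 0.0611 with 1 mouse left out). Pola1 went from 0.05 to -0.009 with array weights and -0.0596 without mouse 1 (-0.0596 to 0.179 with 1 mouse left out).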
